A study of Homo sapiens with 6 samples.

Results

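Autophagy genes and receptors were examined in the enzalutamide-resistant prostate cancer line C4-2B-ENZR. Enzalutamide is an inhibitor of the androgen receptor. The set holds 10 named genes, all of which were matched by Ensembl identifier among the 57820 genes of each count file: ULK1, BECN1, WIPI1, ATG5, MAP1LC3B, GABARAPL1, GABARAPL2, SQSTM1, NBR1 and TFEB. RNA sequencing of total RNA covered 6 libraries in 2 groups, 3 from cells given a negative-control siRNA and 3 from cells given an siRNA against RUVBL1, an AAA+ ATPase of chromatin-remodelling and chaperone complexes. Both groups are therefore the same transfected line, and the siRNA is the only difference that the labels name. The sources used here do not give the number of siRNA sequences, the time after transfection or any enzalutamide in the medium. Nothing in the labels says that replicates were separate cultures, so the spread behind each p-value is that between these libraries and may be technical.

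Autophagy encloses cytoplasm in a double membrane, the autophagosome, and delivers it to lysosomes for breakdown. The ULK1 kinase complex starts the process under the control of mTORC1 and AMPK, a lipid kinase complex with beclin 1 (BECN1) makes PI3P on the growing membrane, and WIPI proteins bind that lipid. The ATG12-ATG5 conjugate then helps to attach ubiquitin-like proteins of the LC3 and GABARAP families to the membrane, where cargo receptors such as p62 (SQSTM1) and NBR1 dock. TFEB is a transcription factor of lysosomal and autophagy genes. Only transcript levels were measured here, and neither proteins nor the flow of cargo through autophagy.

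Library totals ran from 18985542 to 36054489 estimated counts. RUVBL1, the targeted gene, fell in the RUVBL1 siRNA libraries to 57.1% of its control level, with means of 4698 ± 54.1 and 2684 ± 57.9 normalized counts (mean ± SD, n = 3 a group; edgeR adjusted p = 3.74e-10). Normalized counts are counts scaled by the TMM method to a common library size. The replicate 1 library of each group stood apart from replicates 2 and 3 across the transcriptome, but none of the 10 genes was at 0 there: their lowest value in any library was 143 counts, for WIPI1 in control replicate 1. All 11 luminal prostate markers searched for were present in every library. Their summed normalized counts ran from 124883 to 127133 in controls and from 106805 to 109951 after RUVBL1 siRNA. Of the 11, 7 were lower and 1 higher, against 23.1% of all genes tested lower and 19.1% higher. Of 10 matched markers of immune, endothelial and stromal cells, CD3E, DCN and LUM were at 0 in all libraries. Of the 4 tested, 2 were lower and 0 higher. CD68 fell from a mean of 321 to 165 normalized counts (edgeR adjusted p = 8.71e-06). ACTA2 fell from 274 to 109 (edgeR adjusted p = 1.45e-06). COL1A1 had means of 237 and 238 and VWF of 36.5 and 42.3, and neither was called. PTPRC, CD14 and COL3A1 had at most 14 counts in a library and were not tested. The summed level of the 10 markers was 815 to 930 normalized counts in controls and 543 to 601 after RUVBL1 siRNA. Their part in the results was not tested.

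After RUVBL1 siRNA, 4 of the 10 genes rose (MAP1LC3B, SQSTM1, GABARAPL2 and NBR1), 1 fell (TFEB) and 5 did not pass the threshold (ULK1, ATG5, GABARAPL1, WIPI1 and BECN1). The threshold was an adjusted p under 0.05 in edgeR's quasi-likelihood test over 16006 genes. Of all genes tested, 42.2% passed it, 19.1% as higher and 23.1% as lower, so 5 of 10 is close to the background share. That share includes genes with few counts. Among 13030 genes with at least 50 counts in 3 libraries, 53.0% passed, and of the 10 genes 5 were then higher and 1 lower. The shares of all genes given below also include genes with few counts. The median log2 fold change of the 10 genes was 0.12, against 0.012 over all genes tested. Normalized counts of the groups did not overlap for 7 of the 10 genes, and for 52.6% of all genes tested. In bulk RNA, a change in the number of cells that express a gene and a change in RNA per cell cannot be told apart.

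**Figure D1:**
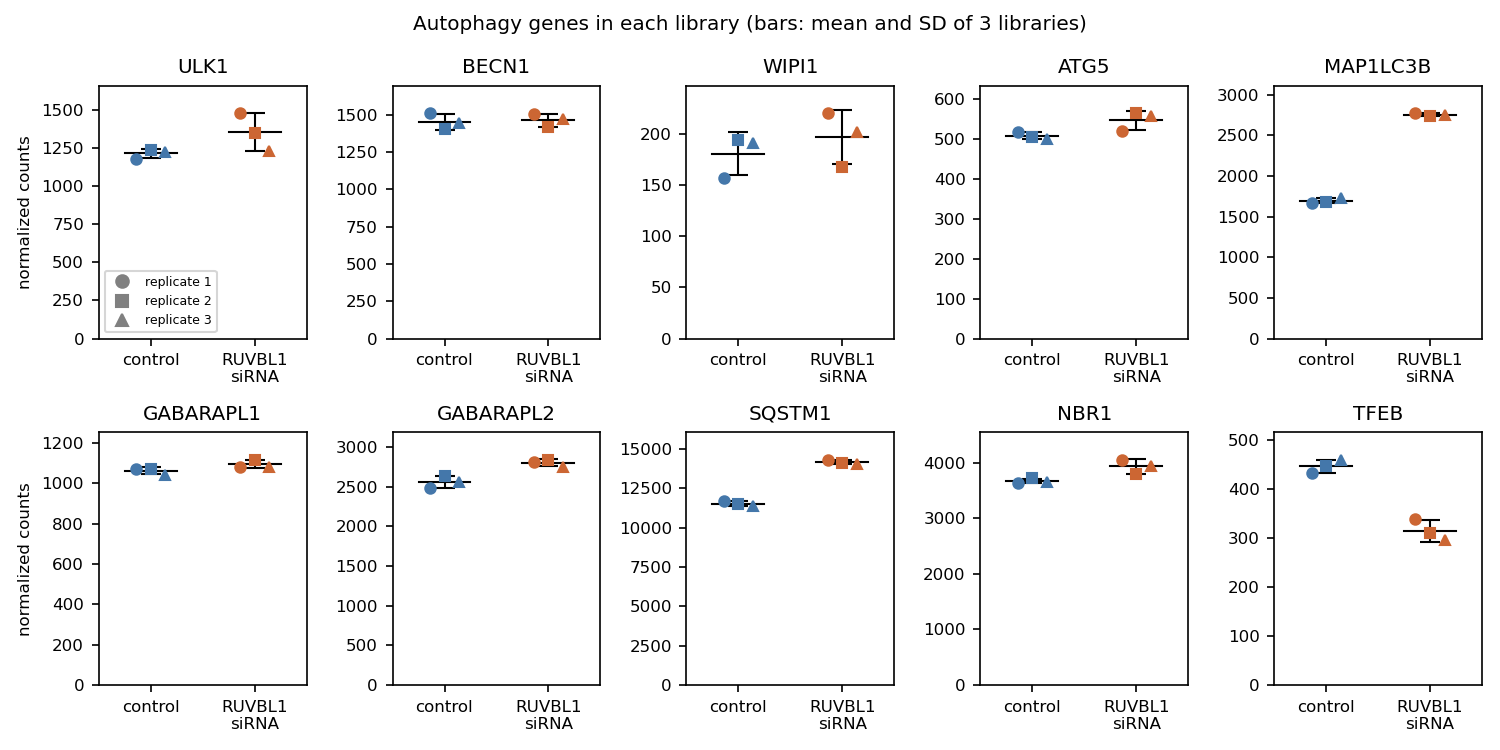
Normalized counts (y axis, from 0) of each gene in the 3 control siRNA and 3 RUVBL1 siRNA libraries (x axis); symbols mark the replicate number and bars the mean and SD. The groups lie farthest apart for MAP1LC3B, SQSTM1 and TFEB, and overlap for ULK1, WIPI1 and BECN1.

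ULK1 (ENSG00000177169.5) encodes the kinase that starts autophagosome formation. It had 1179, 1239.9 and 1224 normalized counts in control replicates 1 to 3 and 1479.5, 1348 and 1233 in RUVBL1 siRNA replicates 1 to 3. RUVBL1 siRNA replicate 3 lay within the control range, and replicate 1 was the highest of all libraries. The difference was a log2 of 0.15 with an SE of 0.0616 (edgeR adjusted p = 0.0788) and an exact two-sided permutation p of 0.2. The call changed with the analysis: with the replicate number as a block the adjusted p was 0.0146, without RUVBL1 siRNA replicate 3 it was 0.00545, and over replicates 2 and 3 alone it was 0.233 with a log2 fold change of 0.068. Of the 4 other genes listed for the ULK kinase complex, 3 passed the threshold. RB1CC1, the scaffold also known as FIP200, rose 1.59-fold from 1079.8 ± 27.3 to 1717 ± 38.6 normalized counts (log2 0.67, edgeR adjusted p = 1.38e-08). ULK2, the second kinase of the family, rose by a log2 of 0.31 and ATG13, the regulatory subunit, by 0.31. ATG101, which stabilizes ATG13, had a log2 value of -0.0027 (SE 0.0435) and was not called. In all, 3 of these 4 genes rose and 0 fell, where 19.1% of all genes were higher. The counts were the same when libraries were scaled by their total counts without TMM (total-count scaling), where 31.1% of all genes were higher.

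BECN1 (ENSG00000126581.8) encodes beclin 1, the regulatory subunit of the lipid kinase complex, and was the flattest of the 10 genes. Its normalized counts were 1509.8, 1400.1 and 1441 in the controls and 1504, 1417 and 1468 after RUVBL1 siRNA, so the groups covered almost the same range. The difference was a log2 of 0.013 with a 95% interval from -0.060 to 0.085 (edgeR adjusted p = 0.848). In GENCODE 29 the span of BECN1 overlaps PSME3 on the opposite strand by 8966 bases and CNTD1 by 1454. PSME3, a proteasome activator gene, fell by a log2 of 0.11 (edgeR adjusted p = 0.00495), but not under total-count scaling (adjusted p = 0.747). The sources used here do not say whether the counting used strand, so reads in the shared part may not have been told apart. Of the 7 other genes of the complex and its regulators, 4 rose and 2 fell, or 85.7% called against 42.2% of all genes. PIK3R4, the VPS15 subunit, fell by a log2 of 0.19 and AMBRA1, a scaffold that links ULK1 to beclin 1, fell by 0.28, while RUBCN, which encodes the inhibitor Rubicon, rose by 0.21. PIK3R4 was not called under total-count scaling (edgeR adjusted p = 0.0748), and the number of genes that rose was 1 without control replicate 2, 2 without control replicate 3 and 2 without RUVBL1 siRNA replicate 2.

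WIPI1 (ENSG00000070540.8) encodes a PI3P-binding protein of the growing membrane and was the gene with the fewest counts. It had 157, 194 and 191 normalized counts in the controls and 220.3, 168 and 202 after RUVBL1 siRNA. Values were scattered in both groups, with the lowest in control replicate 1 and the highest in RUVBL1 siRNA replicate 1. The log2 fold change of 0.12 had an SE of 0.128 and a 95% interval from -0.13 to 0.37 (edgeR adjusted p = 0.503) and was not called. The error expected from counting alone was 0.0862. In GENCODE 29 its span overlaps ARSG on the opposite strand by 1784 bases. Of 9 other genes of membrane supply, lipid transfer and PI3P binding, 3 rose and 4 fell. This called share of 77.8% stood against 42.2% of all genes. VMP1 and ATG9A, which encode membrane proteins that reshape lipids of the forming autophagosome, fell by a log2 of 0.36 and 0.35. ATG2B, which encodes a lipid-transfer protein, rose by a log2 of 0.58, from 1000.2 ± 51.2 to 1497 ± 36.6 normalized counts (mean ± SD, n = 3 a group; edgeR adjusted p = 3.02e-07). Under total-count scaling, 3 of these 9 rose and 2 fell.

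ATG5 (ENSG00000057663.8), the acceptor of ATG12 in the conjugate that drives lipidation, had 517, 505 and 499.8 normalized counts in the controls and 519, 564 and 556 after RUVBL1 siRNA. The groups did not overlap, but RUVBL1 siRNA replicate 1 lay just above control replicate 1. The difference was a log2 of 0.11 with an SE of 0.0557 (edgeR adjusted p = 0.144) and an exact two-sided permutation p of 0.1, the smallest that 3 against 3 libraries allow. Most other genes of this step were also not called. Of 10 genes of conjugation and of the ATG4 proteases, 1 rose and 1 fell, a share of 20.0% against 42.2% of all genes. ATG4C rose by a log2 of 0.27 and ATG4D, another protease that trims LC3 and GABARAP proteins, fell by 0.19. Under total-count scaling 3 rose and 0 fell, and ATG4D was not called (edgeR adjusted p = 0.156).

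MAP1LC3B (ENSG00000140941.8) encodes LC3B, the LC3 protein most used as a marker of autophagosomes, and had the largest change among the 10 genes. Its normalized counts were 1672, 1682 and 1735 in the controls and 2775, 2737 and 2755 after RUVBL1 siRNA. Every RUVBL1 siRNA library lay far above every control library. The gene rose 1.62-fold (log2 0.70, SE 0.0294, edgeR adjusted p = 3.55e-09), with an exact two-sided permutation p of 0.1.

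The GABARAP relatives in the set had smaller changes. GABARAPL2 (ENSG00000034713.3), also called GATE-16, had 2485, 2638 and 2555 normalized counts in the controls and 2812, 2839.8 and 2752 after RUVBL1 siRNA, without overlap. It rose 1.09-fold (log2 0.13, SE 0.0308, edgeR adjusted p = 0.0044). GABARAPL1 (ENSG00000139112.6), a close relative of GABARAP, had 1072, 1071 and 1042 normalized counts in the controls and 1083, 1118 and 1083 after RUVBL1 siRNA. These values did not overlap either, but the gap was small, and the log2 fold change of 0.045 was not called (SE 0.0356, edgeR adjusted p = 0.357). For GABARAPL1 the fitted SE lay just below the 0.0360 expected from counting noise alone. For the other 9 genes it lay above.

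Ratios of counts within a library do not depend on how libraries are scaled, and were computed for pairs chosen after their values were seen, so they are given as a description with no test. The ratio of MAP1LC3B to GABARAPL1 counts was 1.56, 1.57 and 1.67 in the controls and 2.56, 2.45 and 2.54 after RUVBL1 siRNA, a 1.58-fold higher mean. The ratio of MAP1LC3B to GABARAPL2 counts went from 0.663 ± 0.0224 to 0.984 ± 0.0188 (mean ± SD, n = 3 a group). Neither ratio overlapped between groups. Of the other family genes, GABARAP rose by a log2 of 0.23, from 6868 ± 119 to 8063 ± 270.4 normalized counts (mean ± SD, n = 3 a group; edgeR adjusted p = 1.08e-05). MAP1LC3A had only 70.1 ± 11.8 and 64.7 ± 14.3 normalized counts and was not called (edgeR adjusted p = 0.727). MAP1LC3C had at most 1 normalized count in a library and was not tested.

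MAP1LC3B2, a near-identical copy of MAP1LC3B, and the pseudogene MAP1LC3BP1 were at 0 in all 6 libraries, and GABARAPL3 had 5 counts in all. The sources used here do not say how the counter shared reads between such copies, so the values of MAP1LC3B and GABARAPL1 may include reads of the copies. In GENCODE 29 the span of MAP1LC3B also overlaps FBXO31 on the opposite strand by 8148 bases. FBXO31 had a log2 fold change of -0.054 and was not called (edgeR adjusted p = 0.315).

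The promoter of MAP1LC3B is shown because this gene changed most and because its window held the only match to the motifs searched for in the 10 genes. The RefSeq window on GRCh38.p14, chr16:87392086-87392385 on the plus strand, runs from 250 bases before the start of transcription to 50 after it. Capitals mark a match to the antioxidant element TGACNNNGC, which NRF2 binds, whose first base lies at position -46 from the start.
MAP1LC3B: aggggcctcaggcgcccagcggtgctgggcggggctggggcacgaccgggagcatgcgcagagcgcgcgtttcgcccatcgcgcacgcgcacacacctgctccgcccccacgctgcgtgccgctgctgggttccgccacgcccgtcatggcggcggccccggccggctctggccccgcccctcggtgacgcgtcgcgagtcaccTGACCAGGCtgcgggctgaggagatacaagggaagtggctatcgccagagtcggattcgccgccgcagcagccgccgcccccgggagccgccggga
This motif, searched on both strands, occurs in 13.3% of the 35116 windows of the table. The E-box CACGTG, the core of the element that TFEB binds (7.26% of windows), and the element TGATGNAA, which ATF4 binds with its partners (3.62% of windows), were found in none of the 16 windows of the 10 genes. With 1 match in all, no motifs overlapped there. A match is only a match of letters, and other parts of these genes were not searched.

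SQSTM1 (ENSG00000161011.15) encodes p62, the receptor that carries ubiquitinated cargo to LC3 and that is itself broken down by autophagy. It had the most counts of the 10 genes, between 10658 and 15161 per library. Its normalized counts were 11678, 11511 and 11381 in the controls and 14319, 14118 and 14067 after RUVBL1 siRNA. The replicates lay close together and the groups far apart. The gene rose 1.23-fold (log2 0.30, SE 0.0178, edgeR adjusted p = 6.03e-08). In GENCODE 29 its span overlaps MGAT4B on the opposite strand by 555 bases and MRNIP by 2946. MRNIP rose as well, by a log2 of 0.22 (edgeR adjusted p = 0.000317). Their reads in the shared part may not have been told apart.

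NBR1 (ENSG00000188554.9), a second receptor for ubiquitinated cargo, is built like p62 and binds it. It had 3634, 3719 and 3662 normalized counts in the controls and 4057, 3794 and 3949 after RUVBL1 siRNA. The groups did not overlap, and RUVBL1 siRNA replicate 2 lay closest to the controls. NBR1 rose 1.07-fold (log2 0.10, SE 0.0277, edgeR adjusted p = 0.0121). The call held in all 14 alternative analyses, with an adjusted p of up to 0.0482. The ratio of SQSTM1 to NBR1 counts was 3.21, 3.10 and 3.11 in the controls and 3.53, 3.72 and 3.56 after RUVBL1 siRNA, without overlap; this pair too was chosen after its values were seen.

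Receptors beyond SQSTM1 and NBR1 had no shared direction. Of 20 listed, 19 were matched and 18 tested, with 7 higher and 7 lower, or 11 and 6 under total-count scaling. With TMM scaling 77.8% of the 18 were called, against 42.2% of all genes. The median log2 fold change of the 18 receptors was 0.015. The smallest p-values belonged to genes that fell. STBD1, a receptor for glycogen, fell by a log2 of 0.87, but in GENCODE 29 the readthrough gene FAM47E-STBD1 overlaps it by 5104 bases on the same strand and had 15027 counts over the 6 libraries, so its value is uncertain. SEC62 and TEX264, which encode receptors for the endoplasmic reticulum, fell by a log2 of 0.37 and 0.42. Among later steps, 4 of 15 genes of autophagosome-lysosome fusion rose and 3 fell, a called share of 46.7% against 42.2% of all genes. The small GTPase gene RAB7A rose by a log2 of 0.21 and the SNARE gene STX7 by 0.34, while the SNARE gene VAMP8 fell by 0.17. Under total-count scaling, 8 of the fusion genes rose and 0 fell, and VAMP8 was not called (edgeR adjusted p = 0.124). The fusion counts were small and moved with single libraries: 2 rose without control replicate 1, RUVBL1 siRNA replicate 2 or RUVBL1 siRNA replicate 3, and 1 fell without control replicate 2, control replicate 3, RUVBL1 siRNA replicate 1 or RUVBL1 siRNA replicate 3.

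TFEB (ENSG00000112561.13) was the only one of the 10 genes that fell. It had 434, 446 and 460.5 normalized counts in the controls and 339, 310.02 and 296 after RUVBL1 siRNA. All RUVBL1 siRNA libraries lay below all controls, and the level dropped to 70.5% of the control mean (log2 -0.51, SE 0.0725, edgeR adjusted p = 0.000114). The TFEB relatives TFE3 and MITF, chosen after their values were seen, rose by a log2 of 0.17 and 0.49, while TFEC was at 0 in all libraries. Of 12 tested genes on the list of MiT/TFE and FOXO factors and TFEB regulators, 9 rose and 1 fell, a called share of 83.3%, against 19.1% of all genes higher and 23.1% lower. FOXO3, which encodes a transcription factor of autophagy genes, rose by a log2 of 0.33. FLCN, which encodes folliculin, and RRAGC, which encodes a Rag GTPase, rose by 0.38 and 0.41; both belong to the machinery by which mTORC1 is led to hold TFEB in the cytoplasm. FNIP1 and FNIP2, which encode partners of folliculin, rose by 0.30 and 0.47, and RRAGD, a relative of RRAGC, by 0.69. FNIP1, FNIP2 and RRAGD were also chosen after their values were seen. The gene that fell, RRAGA, had a log2 fold change of only -0.078 (edgeR adjusted p = 0.048), and it was not called without control replicate 1, control replicate 2, RUVBL1 siRNA replicate 2 or RUVBL1 siRNA replicate 3 (adjusted p from 0.0577 to 0.139). It also lost its call with DESeq2 (adjusted p = 0.0612), and under total-count scaling its log2 value was 0.021.

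Lysosomal genes listed as carrying TFEB-binding elements were mostly lower. Whether these genes carry the elements was not checked here. Of 30 listed and tested, 19 fell and 3 rose, a called share of 73.3%, against 23.1% of all genes lower and 19.1% higher. The median log2 fold change was -0.17. Under total-count scaling, 13 fell and 7 rose, against 14.4% of all genes lower and 31.1% higher, and the median was -0.072 against 0.11 for all genes. SCARB2, the membrane protein that brings glucocerebrosidase to lysosomes, fell by a log2 of 0.48, from 25477 ± 117 to 18309 ± 105 normalized counts (mean ± SD, n = 3 a group; edgeR adjusted p = 1.67e-09). PSAP, the precursor of the saposins, fell by 0.42 and LAMP2, a major protein of the lysosomal membrane, by 0.36.

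**Figure D2:**
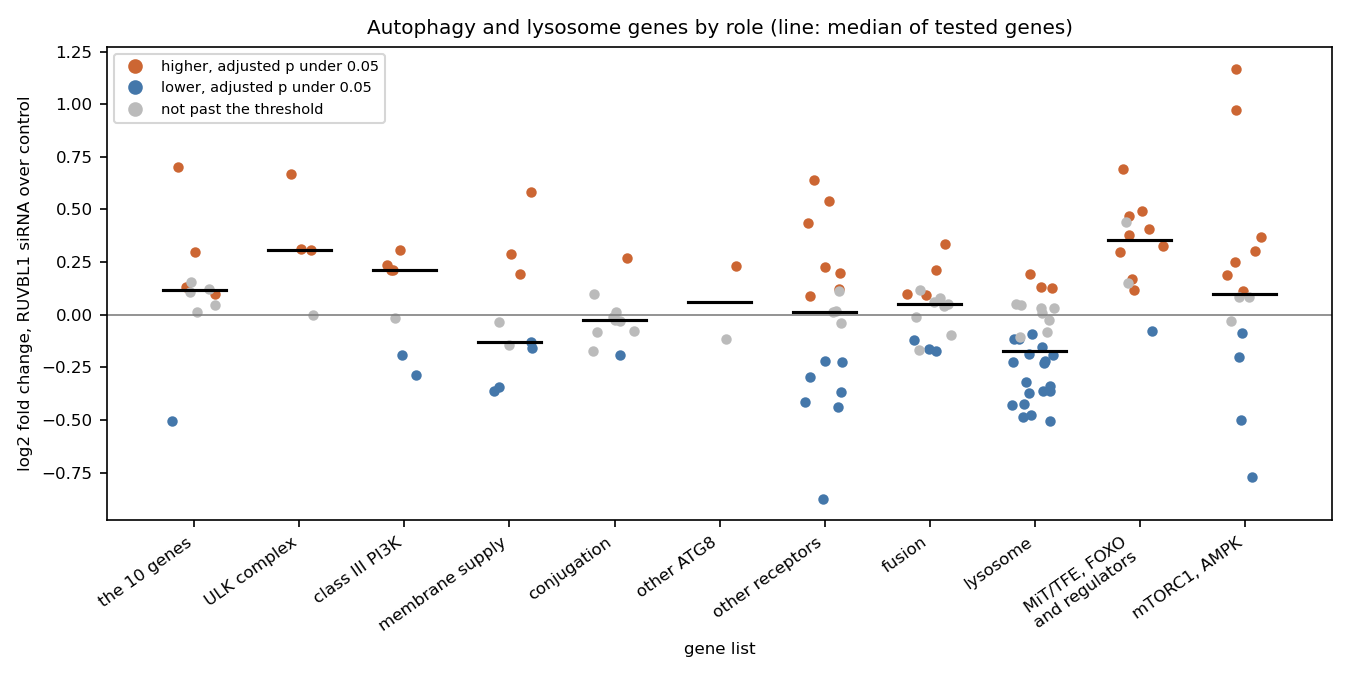
Log2 fold change of RUVBL1 siRNA over control siRNA (y axis) for each tested gene, grouped by role (x axis); colour gives the call and the line the median of the tested genes. ULK complex and MiT/TFE, FOXO and regulator genes lie mostly above 0 (medians 0.31 and 0.35) and lysosomal genes mostly below (median -0.17).

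Upstream of ULK1 and TFEB, 7 of 14 genes of mTORC1 and AMPK rose and 4 fell. The called share was 78.6%, against 42.2% of all genes. DDIT4 and SESN2, which encode inhibitors of mTORC1 that respond to stress, rose by a log2 of 1.17 and 0.97. SESN2 went from 668 ± 21.6 to 1309.7 ± 24.0 normalized counts (mean ± SD, n = 3 a group; edgeR adjusted p = 2.89e-09). RPTOR, which encodes the mTORC1 subunit raptor, fell by a log2 of 0.77, from 1240.3 ± 93.1 to 726 ± 26.2. Over all 121 tested pathway genes outside the 10, 42 rose and 41 fell, a called share of 68.6% against 42.2% of all genes. With at least 50 counts in 3 libraries these shares were 71.1% and 53.0%. The split depended on the scaling, and under total-count scaling 59 rose and 25 fell. Their median log2 fold change was 0.0083, against 0.012 over all genes tested.

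Several of the 10 genes are known as targets of ATF4 or CHOP, the transcription factors of the integrated stress response. In these libraries ATF4 rose by a log2 of 0.49 and DDIT3, which encodes CHOP, by 1.38; both were added with their values known. Of 12 autophagy genes on a list of known ATF4 or CHOP targets, 5 rose and 0 fell, or 8 and 0 under total-count scaling. The 5 were MAP1LC3B, SQSTM1, GABARAP, GABARAPL2 and NBR1. The other 7, ATG3, ATG5, ATG7, ATG10, ATG12, ATG16L1 and BECN1, were not called. The called share of 41.7% is close to the 42.2% of all genes in either direction. All 5 called genes rose, and of the 6755 genes called among all genes tested, 3060 were higher. As a share of the list, 5 of 12 were higher, against 19.1% of all genes. Under total-count scaling 8 of 12 were higher, against 31.1% of all genes. MAP1LC3B, SQSTM1, GABARAPL2, NBR1, ATG5 and BECN1 are also among the 10 genes, so the list repeats genes already counted. Whether ATF4 or CHOP had a part in these changes was not tested.

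The scaling of the libraries decided the call for several genes. TMM scaling gave 4 of the 10 genes higher and 1 lower, and scaling by library totals alone gave 8 higher and 1 lower. Of all genes, 45.5% were then called, 31.1% as higher and 14.4% as lower. Total-count scaling moved the median log2 fold change of all genes from 0.012 to 0.11. BECN1 then had 0.11 (edgeR adjusted p = 0.0377), the same as the median gene, and GABARAPL1 0.14. MAP1LC3B stayed well above the median gene with either scaling, at 0.70 and 0.80, and TFEB well below it, at -0.51 and -0.41. MAP1LC3B, SQSTM1, GABARAPL2, NBR1 and TFEB passed the threshold in all 14 alternative analyses, replicates 2 and 3 alone included, and WIPI1 in none.

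**Figure D3:**
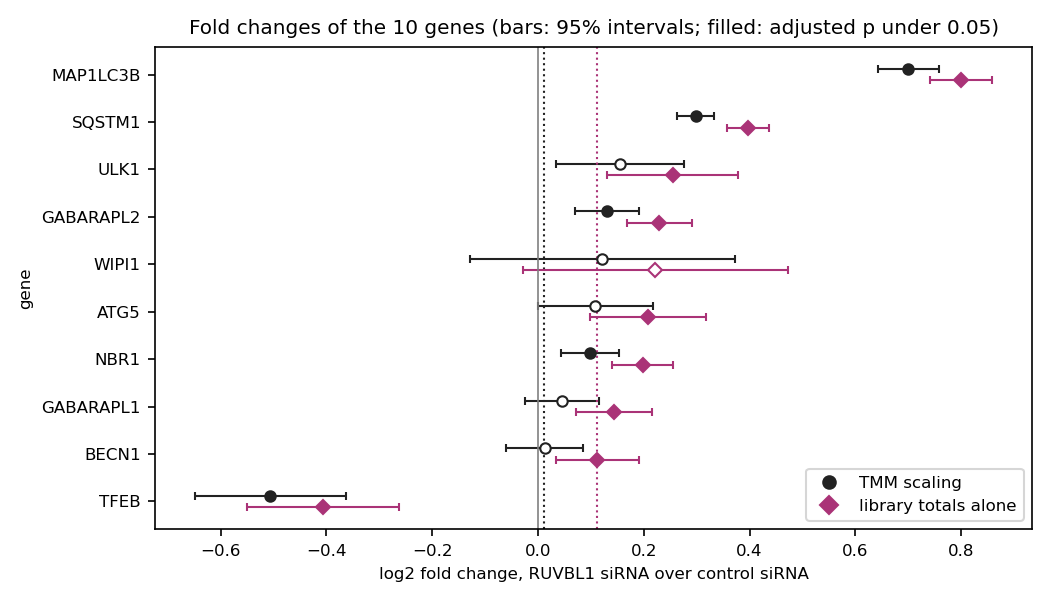
Log2 fold change (x axis) of each of the 10 genes (y axis) with TMM scaling and with library totals alone; bars are 95% intervals (1 bar for each scaling), filled symbols have an edgeR adjusted p under 0.05, and dotted lines mark the median of all genes tested with each scaling. MAP1LC3B lies at 0.70 and TFEB at -0.51 with TMM scaling, and the other 8 genes between 0.013 and 0.30.

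Levels of the 10 genes were compared per length, as TPM computed from the counts with the median transcript length in GENCODE 29. TPM divides counts by length and brings every library to the same sum. In control libraries SQSTM1 had the highest level at 528 ± 13.4 (SD, n = 3), followed by GABARAPL2 at 108 ± 2.33, MAP1LC3B at 90.9 ± 1.29, BECN1 at 76.8 ± 3.86 and GABARAPL1 at 54.5 ± 1.42. NBR1 had 42.4 ± 0.421, ULK1 32.2 ± 0.479 and TFEB 14.6 ± 0.278. WIPI1 at 7.30 ± 0.757 and ATG5 at 6.39 ± 0.195 were the lowest, and only these neighbours overlapped in their ranges. The order depends on which transcripts the cells use, which was not measured: with the longest transcript of each gene NBR1 moved to the third place and ATG5 came out above WIPI1. SQSTM1 and GABARAPL2 kept the top places with either length.

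**Figure D4:**
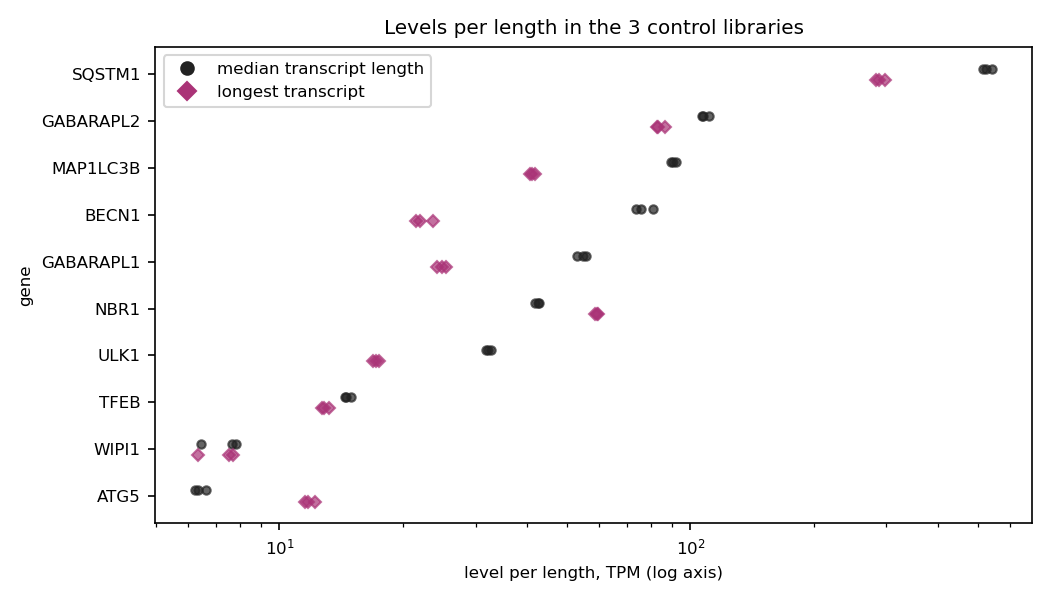
Level per length in TPM (x axis, log scale), of each of the 10 genes (y axis) in the 3 control libraries, with the median or the longest transcript length. SQSTM1 is highest with either length, at 528 and 289.7, and WIPI1 and ATG5 change places at the bottom.

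Among the genes most like SQSTM1 across the 6 libraries, by Pearson correlation of log2 CPM, were OAZ2, an inhibitor of ornithine decarboxylase (r = 0.999792), and the zinc finger factor gene OSR2 (r = 0.999476). They were drawn from 11477 genes with a symbol that averaged 100 or more normalized counts. In total 217 genes had an r over 0.99. The 6 points are 2 groups of 3 libraries that share their siRNA, so these values are a description with no p.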

How the data were processed

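The study compared C4-2B-ENZR cells after control siRNA and RUVBL1 siRNA, 3 libraries each, grouped by the labels. The deposited values are the authors' estimated counts, with library totals that differ. Of the values above 0, between 70.4% and 72.8% are exactly whole (no tolerance). Tools and builds are known only per the submitters' processing notes, which list Bowtie 0.12.2, mm8 and mm9. The last 2 are mouse builds, although the gene identifiers are human. The sources used here do not give the counter, human build, annotation or strand setting. Identifiers were matched to symbols for 51996 of 57820 genes. Of the genes listed, NCOA4 and PECAM1 had no match and were not analysed here.

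Rounded counts went into edgeR 4.0.16 under R 4.3.3 (low-count filter filterByExpr, TMM, robust quasi-likelihood test on group, two-sided, Benjamini-Hochberg over 16006 genes). SE is the log2 fold change divided by the square root of F. Single genes also had an exact two-sided permutation test of log2 CPM (prior count 2, smallest p 0.1). Levels per length used GENCODE 29. Promoter windows came from RefSeq GRCh38.p14 and matched all 10 genes. The 10 genes and all lists were chosen with earlier results of these data known. Named were all 10 genes, RUVBL1, all genes of the 2 shortest lists, the 3 genes with the smallest p past the threshold of each other list, and the 3 genes most correlated with SQSTM1, of which 1 is not reported here.

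Pairing by replicate number was checked on deviations from the group means: same-numbered libraries correlated at 0.939, 0.819 and 0.823, all above 0.1. The replicate number served as a block in an alternative. The labels do not say what a number marks, and replicates 2 and 3 also correlated across numbers (0.807 and 0.817). Deviations are taken from a mean of 3 libraries, so with replicate 1 apart, replicates 2 and 3 must deviate the same way. The check thus shows that replicate 1 differed alike in both groups, and cannot show pairing of replicates 2 and 3. Counts were simulated for this comparison with 200 changed genes over 15917 tested. Of 50 genes with a 1.25-fold change 33 were called by edgeR, with a 1.5-fold change 47 of 50 and with a 2-fold change 50 of 50. The simulation gave every gene the same variation between libraries, had no replicate effect and changed only well-counted genes. It also changed far fewer genes than were called in the data, so these shares are not the power of the real comparison. Alternatives were limma-voom (limma 3.58.1), a Wald test in DESeq2 1.42.0, DESeq2 size factors in edgeR, library totals alone, no low-count filter, at least 50 counts in 3 libraries, the replicate block, each library left out in turn, and replicates 2 and 3 alone.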

Additional observations from a re-analysis of the deposited data

How the results depend on the processing

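MAP1LC3B, SQSTM1, GABARAPL2, NBR1, TFEB and RUVBL1 kept their direction and their call in all 14 alternatives. Under total-count scaling, genes past the threshold numbered 4981 higher and 2297 lower, against 3060 and 3695 with TMM scaling; of the 10 genes 8 were higher, and of the other pathway genes 25 were lower. GABARAPL1 (log2 0.14), ULK1 (0.25), ATG5 (0.21) and BECN1 (0.11) then passed the threshold, and FBXO31 (0.045), RRAGA (0.021) and ATG101 (0.10) changed sign. ULK1 also passed with DESeq2 (0.16), without the low-count filter (0.14), with at least 50 counts in 3 libraries (0.17) and with the replicate block (0.15). The replicate block changed no other call among the 10 genes. ATG101 turned positive with DESeq2 (0.0050), limma-voom (0.0031), DESeq2 size factors (0.0025), the stricter filter (0.0099) and the replicate block (0.0011), and BECN1 negative without the filter (-0.0069). The fusion list had 2 higher without the filter and 1 lower with DESeq2. With 1 library left out at a time, or with replicates 2 and 3 alone, the log2 fold change ran from -0.016 to 0.037 for BECN1, from -0.063 to 0.22 for WIPI1, from 0.068 to 0.22 for ULK1, from -0.040 to 0.042 for ATG101 and from -0.25 to 0.054 for MAP1LC3A. The cause of these changes was not tested. With the longest transcript, the control level per length was 289.7 for SQSTM1, 59.2 for NBR1, 41.3 for MAP1LC3B, 24.8 for GABARAPL1, 84.4 for GABARAPL2, 17.2 for ULK1, 11.8 for ATG5, 22.4 for BECN1 and 12.9 for TFEB. Depth was lowest for WIPI1 (143 to 256 counts per library).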
